A study of Mus musculus with 7 samples.

Results

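The tumour necrosis factor receptor associated factors (TRAF adaptors) and the linear ubiquitin machinery were examined in sorted mouse Paneth cells (PCs), which release antimicrobial granules from the crypt bottoms of the small intestine. The set was a fixed list of 10 gene symbols, matched by identifier to the count table. It held the adaptors Traf1 to Traf6, the linear ubiquitin ligase genes Rnf31, Sharpin and Rbck1, and Otulin, which encodes the matching deubiquitinase. All 10 were among the 55414 gene identifiers of the table. The filter on low counts left 14329 genes to test, 9 members among them, and Traf1 was the member that failed it.

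PCs were purified with a cell sorter from C57BL/6J mice 15 h after an injection of TNF, a pro-inflammatory cytokine, or of phosphate-buffered saline (PBS). The PBS group had 3 libraries and the TNF group had 4, and per the series description every library came from its own mouse. The TNF dose, the sex and age of the mice, the sorting antibodies, the stretch of small intestine and the days of sorting are not given here, and no batch was known that could be examined. Single-end reads of total RNA were counted per gene, and the libraries held 15511455 to 19193721 counts.

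TRAF proteins are cytoplasmic adaptors that bind the tails of TNF receptor family members, interleukin-1 receptors and Toll-like receptors, in part through bridging proteins. Most of them carry a RING domain and work with ubiquitin ligases, so that chains of ubiquitin are built on the receptor complex. The linear ubiquitin chain assembly complex then adds chains joined head to tail, which are read by the NF-kB kinase complex. Otulin cleaves these linear chains, and in the gut the balance between both activities is known to affect inflammation and epithelial cell death.

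To show what lies at the starts of the adaptor genes, RefSeq promoter windows of build GRCm38.p6 were read, which hold 250 bases before and 50 after each annotated start. The table gave 10 windows for 9 members, and Sharpin was not matched. The windows were searched on both strands for GGG and TTCC with any 3 bases between them, a simplified form of the NF-kB binding motif. Of all 32851 windows of the same length, 5.56% hold it. Sites that differ from this form were not counted as matches. The form was found in 3 of the 10 windows, those of Traf2, Traf3 and Traf5. The 250 bases before the start of Traf6, the member with the largest change, held no match and lie at chr2:101678170-101678419 on the plus strand. The match of Traf3 ends at the last base before its start, and that of Traf5 begins at position -207 from its start. In Traf2 the match begins 31 bases after the start. Printed are the upstream bases of Traf6, chosen for the size of its change, and the 3 matches, chosen because they hold the motif. The matches are given with up to 10 flanking bases on each side and the motif in capitals, at chr2:25546891-25546919 (minus strand) for Traf2, chr12:111166350-111166379 (plus strand) for Traf3 and chr1:192092787-192092816 (minus strand) for Traf5. A match is a string of letters and was not tested for binding.
Traf6 upstream: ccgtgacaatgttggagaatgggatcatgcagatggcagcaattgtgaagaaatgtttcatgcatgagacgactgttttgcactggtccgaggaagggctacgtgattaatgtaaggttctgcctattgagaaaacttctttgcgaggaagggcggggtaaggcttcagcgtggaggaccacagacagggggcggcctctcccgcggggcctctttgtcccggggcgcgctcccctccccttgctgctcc
Traf2 match: gcggcagcggGGGTGTTTCCcggcgagcg
Traf3 match: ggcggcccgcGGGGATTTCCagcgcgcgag
Traf5 match: tctagggtctGGGTGATTCCcagcatctag

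After TNF, higher transcript levels passed the test for part of the TRAF family and for 1 of the 3 ligase genes, with Traf6 far ahead of the others. With edgeR's quasi-likelihood test and an adjusted p under 0.05 over all tested genes, Traf6, Traf2, Rnf31, Traf4 and Traf3 were higher after TNF. These were 5 of the 9 tested members, in a comparison in which 59.6% of all tested genes were called, 29.5% higher and 30.1% lower. No member was called lower at an adjusted or an unadjusted p under 0.05 with edgeR, nor by DESeq2. The median log2 fold change of the tested members was 0.40, against 0.0017 over all tested genes. The median of the members was 0.3 without PBS replicate 3. With scaling by total counts it was 0.25, against -0.16 over all tested genes. Levels below are CPM, counts scaled to 1000000 per library after TMM scaling of the library sizes, which aligns the bulk of the genes. In RNA from a sorted population, fewer cells of a type and less RNA per cell cannot be told apart.

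**Figure D1:**
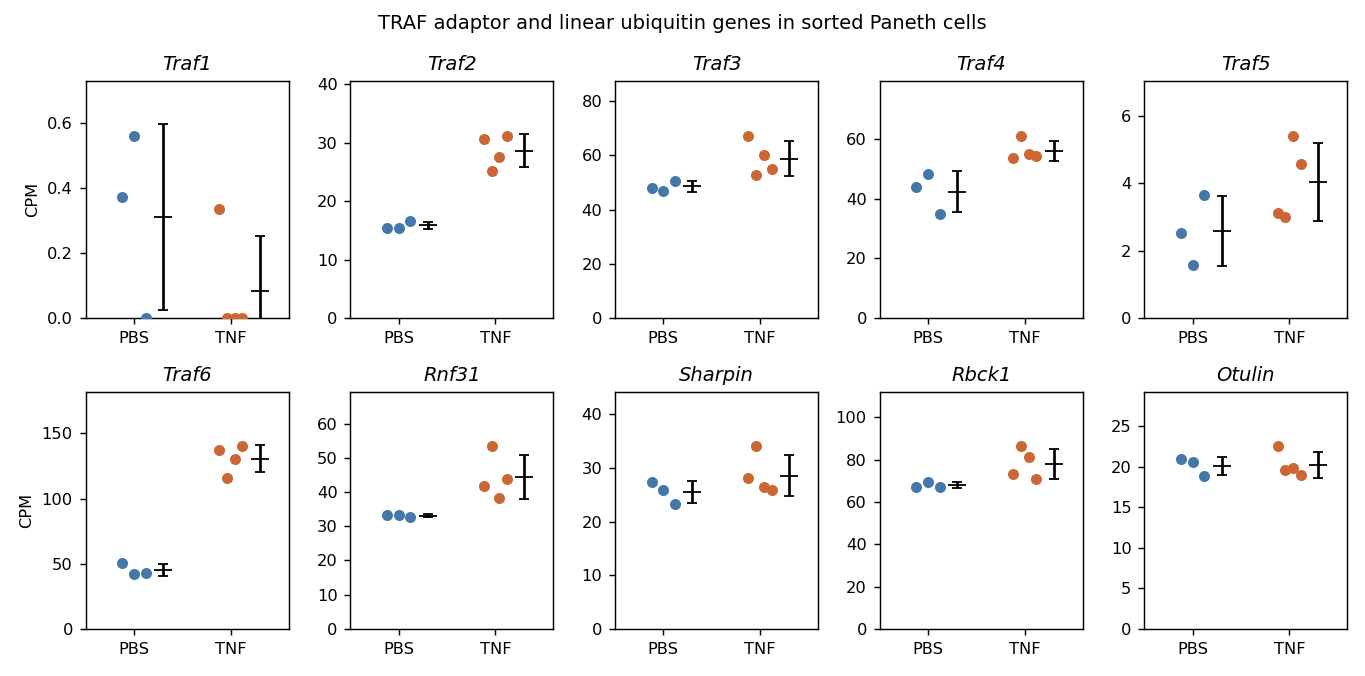
Level of each of the 10 genes in CPM (y axis, linear, from 0, own scale per gene) in the 3 PBS and 4 TNF libraries. Points are libraries and bars beside them are the mean ± SD, cut at 0 for Traf1. Traf6 rises from 41.8 to 50.3 CPM after PBS to 116 to 140 CPM after TNF, and Otulin keeps to 18.8 to 22.5 CPM in all 7 libraries.

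Traf6 (ENSMUSG00000027164, GRCm39 chromosome 2, 101508519 to 101533545, plus strand) encodes the ubiquitin ligase that relays signals from the interleukin-1 and Toll-like receptors. Its level was 50.3, 41.8 and 43.2 CPM in the PBS libraries and 137, 116, 130 and 140 CPM in the TNF libraries. Every TNF library was more than 2-fold above every PBS library. The log2 fold change was 1.54 ± 0.11 (SE, edgeR adjusted p = 7.11e-08), which is 2.9-fold with a 95% interval of 2.45 to 3.43. Of all tested genes, 91.6% had a smaller log2 fold change, and Traf6 ranked at 1210 among them from the largest rise down. Traf6 was also the only member called with a change of at least 2-fold, as were 14.4% of all tested genes in the direction of a rise.

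Traf2 (ENSMUSG00000026942, chromosome 2, 25406097 to 25436987, minus strand) encodes the adaptor that TRADD brings to TNF receptor 1 and that in turn binds the cIAP ligases. Its level was 15.5, 15.5 and 16.6 CPM after PBS and 30.6, 25.2, 27.5 and 31.2 CPM after TNF. The groups lay well apart, with a gap between them larger than the range of either. Traf2 rose by 0.85 ± 0.13 in log2 (SE, edgeR adjusted p = 6.14e-05), which is 1.81-fold. Traf2 and Traf6 were called under every scaling and with every single library left out.

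Traf3 and Traf4 moved by less. Traf3 (ENSMUSG00000021277, chromosome 12, 111132776 to 111233589, plus strand) restrains the alternative NF-kB pathway by keeping the kinase NIK at low level. Its values were 48.1, 46.9 and 50.6 CPM after PBS and 67.2, 52.9, 60.1 and 55.0 CPM after TNF. The groups did not overlap, although the lowest TNF library was only just above the highest PBS library. The rise was 0.28 ± 0.11 in log2 (SE, edgeR adjusted p = 0.0435). Over the libraries left out it ran from 0.2 (TNF replicate 1) to 0.33 (TNF replicate 2), and it was 0.12 with scaling by total counts. The call was lost without PBS replicate 1 (edgeR adjusted p = 0.0938), PBS replicate 2 (0.127), PBS replicate 3 (0.0549), TNF replicate 1 (0.112) or TNF replicate 3 (0.105), with the replicate number as a block (0.0872), without the filter (0.0707), and with scaling by total counts (0.596).

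Traf4 (ENSMUSG00000017386, chromosome 11, 78048186 to 78056417, minus strand) encodes a family member that is prominent in epithelia. It stood at 44.0, 48.2 and 34.8 CPM after PBS and at 53.6, 61.1, 55.0 and 54.3 CPM after TNF. All TNF libraries were above all PBS libraries, and PBS replicate 3 was the lowest of the 7. In log2 the rise was 0.40 ± 0.12 (SE, edgeR adjusted p = 0.011). Without PBS replicate 3 it was 0.28 and no longer called (edgeR adjusted p = 0.0602), and with scaling by total counts it was 0.25 (0.157).

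Traf5 and Traf1 were the members with the lowest levels. Traf5 (ENSMUSG00000026637, chromosome 1, 191725516 to 191776911, minus strand) encodes a close relative of the Traf2 product. Its level was 2.53, 1.58 and 3.66 CPM after PBS and 3.13, 3.01, 5.41 and 4.58 CPM after TNF, from 31 to 101 counts per library. The groups overlapped. The log2 fold change of 0.64 ± 0.36 (SE) was not called (edgeR adjusted p = 0.144), and its 95% interval of -0.14 to 1.42 includes changes larger than that of Traf3. It was 0.97 without PBS replicate 3 (edgeR adjusted p = 0.0511) and 0.38 without PBS replicate 2 (0.428). A microRNA gene and a long noncoding RNA gene share exon bases with Traf5, and both had 0 counts in all libraries.

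Traf1 (ENSMUSG00000026875, chromosome 2, 34831762 to 34851837, minus strand), which encodes the family member without a RING domain, was close to the limit of detection. It had 6, 11 and 0 counts in the PBS libraries and 6, 0, 0 and 0 in the TNF libraries. With 0 counts, a library allows up to 3 counts, which is 0.159 to 0.196 CPM in the 4 libraries at 0, and this limit covers counting error only. Traf1 had 17 counts in all after PBS and 6 after TNF. In the fit without a filter the log2 fold change was -1.79 ± 1.32 (SE, edgeR adjusted p = 0.292), and a difference between the groups was not detectable at this depth.

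Of the linear ubiquitin genes, the catalytic subunit changed and the accessory subunits did not pass the test. Rnf31 (ENSMUSG00000047098, chromosome 14, 55828443 to 55841309, plus strand) encodes HOIP, the subunit that forms the linear bond. Its level was 33.3, 33.4 and 32.6 CPM after PBS and 41.8, 53.3, 38.3 and 43.8 CPM after TNF. The PBS libraries were nearly equal, and all TNF libraries were higher and more spread. Rnf31 rose by 0.42 ± 0.12 in log2 (SE, edgeR adjusted p = 0.00963), and it was 0.25 with scaling by total counts (0.195). Rnf31 shares 282 exon bases with Irf9 on the same strand and 731 with Psme2 on the opposite strand, which rose by 1.37 ± 0.14 and 2.08 ± 0.14 in log2 (SE, edgeR adjusted p = 1.49e-06 and 4.18e-08). The use of strand in counting is not given, so the value of Rnf31 is uncertain to that extent, and the part of these neighbours in it was not tested.

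Rbck1 (ENSMUSG00000027466, chromosome 2, 152154456 to 152174609, minus strand) encodes HOIL-1, an accessory subunit with ligase activity of its own. It had 67.0, 69.6 and 67.2 CPM after PBS and 73.4, 86.2, 81.1 and 70.9 CPM after TNF. The groups did not overlap, yet the log2 fold change of 0.20 ± 0.10 (SE) was not called (edgeR adjusted p = 0.109), and its 95% interval was -0.02 to 0.42. With scaling by total counts the change was 0.03 (edgeR adjusted p = 0.865). Rbck1 shares 1347 exon bases with Tbc1d20 on the opposite strand, which rose by 0.84 ± 0.10 in log2 (SE, edgeR adjusted p = 8.49e-06).

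Sharpin (ENSMUSG00000022552, chromosome 15, 76230571 to 76235948, minus strand) encodes the other accessory subunit. It had 27.3, 25.9 and 23.3 CPM after PBS and 28.1, 34.0, 26.4 and 25.8 CPM after TNF. The groups overlapped, and TNF replicate 2 was the highest library here as it was for Rnf31, Rbck1 and Traf4. The log2 fold change was 0.17 ± 0.13 (SE, edgeR adjusted p = 0.29), with a 95% interval of -0.11 to 0.45. This change was 0.08 without TNF replicate 2, 0.1 without PBS replicate 3 and 0.01 with scaling by total counts. Sharpin shares 1151 exon bases with Maf1 on the opposite strand, which had a log2 fold change of 0.19 (edgeR adjusted p = 0.204).

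Otulin (ENSMUSG00000046034, chromosome 15, 27542721 to 27631297, minus strand) had 20.9, 20.6 and 18.8 CPM after PBS and 22.5, 19.6, 19.8 and 19.0 CPM after TNF. The groups overlapped, and TNF replicate 1 was above all PBS libraries. The log2 fold change was 0.01 ± 0.13 (SE, edgeR adjusted p = 0.956), and the 95% interval of the fold, 0.833 to 1.22, leaves room for small changes in both directions. Its sign turned with scaling by total counts (-0.14).

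In 6 of the 10 members (Traf2, Traf3, Traf4, Traf6, Rnf31 and Rbck1) all TNF libraries were above all PBS libraries, an arrangement that 29.9% of all tested genes showed in this direction and 60.7% in either. Scaling by total counts alone put the median over all tested genes at -0.16 in log2, and the smaller rises of Traf3, Traf4 and Rnf31 lost their calls under it.

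Levels of different genes were compared as CPM per kilobase (kb) of exon, with the union of all annotated exons as length. After PBS, Traf4 was highest at 7.88 ± 1.27 CPM per kb (SD, n = 3). It was followed by Traf3 (5.95), Rbck1 (5.81), Rnf31 (5.0), Sharpin (4.98), Traf6 (4.35), Traf2 (2.06), Otulin (1.56), Traf5 (0.23) and Traf1 (0.035), all as means in CPM per kb. In this order the ranges of Traf3 and Rbck1, of Rnf31 and Sharpin, and of Sharpin and Traf6 overlapped, while the other neighbours were apart in all PBS libraries.

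After TNF, Traf6 moved from the sixth place to the first, at 12.6 ± 1.05 CPM per kb (SD, n = 4). Traf4 (10.4), Traf3 (7.2), Rnf31 (6.7), Rbck1 (6.67), Sharpin (5.58), Traf2 (3.73), Otulin (1.57), Traf5 (0.357) and Traf1 (0.00946) came next in means of CPM per kb. Traf6 and Traf4 overlapped, as did each neighbouring pair from Traf3 to Sharpin, and the remaining neighbours were apart. The order depends on the length used, an alternative chosen after the data were seen. Per kb of the canonical transcript, Rbck1 was first and Traf4 second in both groups, and Traf6 went from the sixth place to the third.

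Within the TRAF family the make-up shifted toward Traf6. Traf6 held 22.9%, 19.2% and 21.5% of the summed CPM per kb of the 6 Traf genes after PBS, and 37.0%, 34.3%, 36.7% and 38.8% after TNF. The groups did not overlap, with means of 21.2% ± 1.83 (SD, n = 3) and 36.7% ± 1.86 (SD, n = 4). The mean share of Traf3 went from 29.1% to 20.9% without overlap. That of Traf4 went from 38.3% to 30.5%, with groups that overlapped (33.5% to 42.8% after PBS and 28.0% to 34.9% after TNF). Neither gene was lower in CPM after TNF. Traf2 held 10.1% and 10.8%. With canonical lengths the share of Traf6 was smaller, 14.8% ± 1.54 after PBS and 26.6% ± 1.73 after TNF, and again without overlap.

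**Figure D2:**
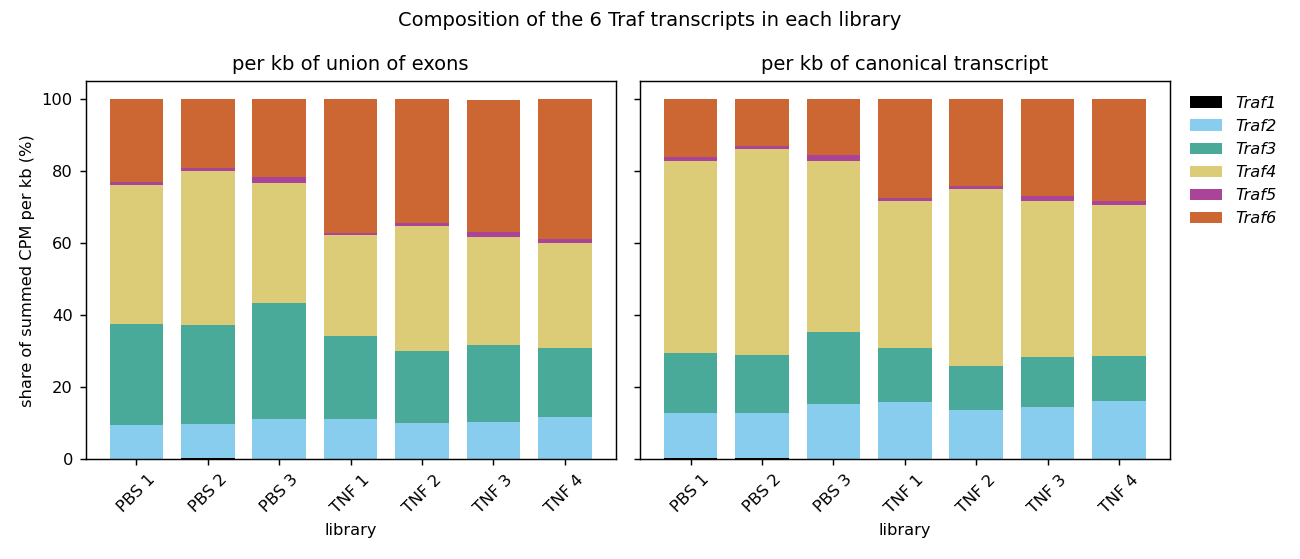
Share of each Traf gene in the summed CPM per kb of the 6 Traf genes (y axis, percent) in each of the 7 libraries, with the union of exons as length on the left and the canonical transcript on the right. The Traf6 segment takes 19.2% to 22.9% of the PBS bars and 34.3% to 38.8% of the TNF bars on the left.

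Ratios between members in the same library do not depend on scaling between libraries, and they are given as a description without a test. The ratio of Traf3 to Traf2 in CPM per kb was 2.93, 2.85 and 2.87 after PBS and 2.07, 1.97, 2.06 and 1.66 after TNF. It was lower in all TNF libraries, with a log2 difference of -0.58. The ratio of Traf6 to Traf2, added after the values were seen, was 2.41, 2.00 and 1.93 after PBS and 3.32, 3.39, 3.51 and 3.32 after TNF. This ratio was higher in all TNF libraries, by 0.69 in log2. The ratio of Traf5 to Traf2 overlapped between the groups, from 0.0694 to 0.15 after PBS and from 0.0698 to 0.134 after TNF. The level of a ratio depends on the length used, and its log2 difference between the groups does not. Per kb of the canonical transcript, Traf3 to Traf2 had a mean of 1.31 after PBS and 0.883 after TNF, below 1 in all TNF libraries.

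Against the catalytic subunit Rnf31, Sharpin had a ratio of 1.06, 1.00 and 0.924 after PBS and 0.868, 0.824, 0.891 and 0.762 after TNF. It was lower in all TNF libraries, with a log2 difference of -0.25. Otulin had a ratio to Rnf31 of 0.322, 0.317 and 0.297 after PBS and 0.276, 0.189, 0.266 and 0.222 after TNF, a log2 difference of -0.40 without overlap. The ratio of Rbck1 to Rnf31 ran from 1.14 to 1.18 after PBS and from 0.915 to 1.20 after TNF, so that the groups overlapped. With canonical lengths the mean ratio of Rbck1 to Rnf31 was 3.39 after PBS and 2.94 after TNF. The overlap of Rnf31 with Irf9 and Psme2 touches all 3 of these ratios. Those of Sharpin with Maf1 and of Rbck1 with Tbc1d20 touch the ratios of these genes as well.

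**Figure D3:**
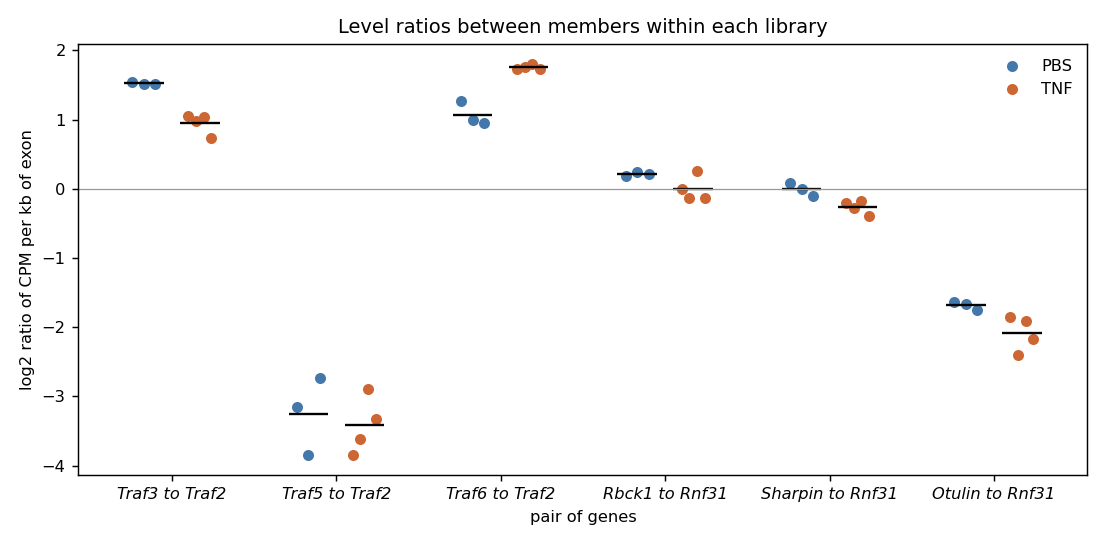
Ratio of 6 pairs of genes within each library, as log2 of the ratio of CPM per kb of exon (y axis). Points are the 3 PBS and 4 TNF libraries and lines are group means. Traf3 to Traf2 lies lower and Traf6 to Traf2 higher in all TNF libraries, while Traf5 to Traf2 and Rbck1 to Rnf31 overlap.

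The genes most like Traf6 over the 7 libraries were sought among the 9834 protein-coding genes that averaged 5 CPM or more, by the root mean square distance of log2 CPM centred on each gene's mean. Among the closest were Lrrc8b, a subunit gene of the volume-regulated anion channel (distance 0.0595), and Nkapd1 (0.0672). Lrrc8b had 58.9 to 70.4 CPM after PBS and 168 to 194 CPM after TNF. Its log2 fold change was 1.54 ± 0.11, beside 1.49 ± 0.12 for Nkapd1 (SE, edgeR adjusted p = 5.53e-08 and 1.51e-07). Both were chosen for a profile like that of Traf6 in the same libraries, so changes of similar size follow from the choice.

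The members were then set beside other genes of the same pathway. The counts of each list stand beside 29.5% higher and 30.1% lower over all tested genes. Of 10 receptors that recruit TRAF proteins or TRADD, 8 were higher and 1 was lower, with a median log2 fold change of 1.63. The lower one was Il1r1, with 26, 63 and 21 counts in the PBS libraries and 18, 1, 0 and 1 in the TNF libraries. Its log2 fold change was -2.76 ± 0.92 (SE). The call of Il1r1 was lost without PBS replicate 2, TNF replicate 2 or TNF replicate 4. Tnfrsf1a, which encodes TNF receptor 1, and Tnfrsf1b, which encodes TNF receptor 2 and binds TRAF2 directly, rose by 0.97 ± 0.11 and 3.95 ± 0.13 in log2 (SE, edgeR adjusted p = 4.36e-06 and 7.95e-11). Tnfrsf1b had 8.47 to 11.0 CPM after PBS and 138 to 151 CPM after TNF. Cd40, whose product binds several TRAF proteins, had 1 count in the PBS libraries together and 454 in the TNF libraries, a ratio of 361 with a 95% exact binomial interval of 64.4 to 14285 that covers counting error only. It was chosen after its values were seen, and with Cd40 at the low end of its interval the median of the receptors stayed at 1.63.

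Of 11 genes for proteins that bind TRAF proteins, 10 were tested, 6 were higher and 1 was lower, with a median log2 fold change of 0.67. The adaptor gene Tifa, whose product binds TRAF6, had 98.6, 75.4 and 73.7 CPM after PBS and 1659, 2040, 1284 and 1953 CPM after TNF. Its rise of 4.39 ± 0.21 (SE, edgeR adjusted p = 1.06e-09) was the largest of the list. Ripk1, the kinase gene of the TNF receptor 1 complex, rose by 0.94 ± 0.11 in log2 (SE, edgeR adjusted p = 4.69e-06), close to the 0.85 of Traf2. Tradd, the bridge between that receptor and TRAF2, was not called (0.29 ± 0.18, edgeR adjusted p = 0.197). Traf3ip1, known chiefly for its role in cilia, fell by 1.26 on the log2 scale (SE 0.26, edgeR adjusted p = 0.000842).

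Of 11 other ubiquitin ligases and conjugating enzymes, 4 were higher and 2 were lower, and the median log2 fold change was -0.02, and over the alternatives it ran from -0.17 (total counts scaling) to 0.15 (PBS replicate 2 left out). The pair of cIAP ligases that bind TRAF2 differed in their values. Birc3 went from 21.4 to 24.4 CPM after PBS to 169 to 196 CPM after TNF, a rise of 2.99 ± 0.11 in log2 (SE, edgeR adjusted p = 2.33e-10). Birc2 had -0.11 ± 0.11 (SE, edgeR adjusted p = 0.416). Peli2, a ligase gene of the interleukin-1 receptor pathway, fell by 2.00 on the log2 scale (SE 0.12, edgeR adjusted p = 9.74e-09).

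Of 9 deubiquitinase and adaptor genes, 8 were tested, 6 were higher and 0 were lower, with a median log2 fold change of 1.22. The gene left out by the filter was Otulinl, a relative of Otulin, with 56 counts in all after PBS and 5 after TNF. Without the filter, or without PBS replicate 1, it was tested and called lower, and the median of the list was 0.60 or 0.67. Tnfaip3, the gene of the ubiquitin-editing enzyme A20, rose by 4.50 ± 0.13 (SE, edgeR adjusted p = 3.65e-11), from 14.7 to 16.4 CPM after PBS to 325 to 404 CPM after TNF. Usp18, whose product removes the ubiquitin-like protein ISG15 and not ubiquitin chains, had the largest rise of the list at 5.30 ± 0.27 (SE, edgeR adjusted p = 5.77e-09). Spata2, which links the deubiquitinase CYLD to HOIP, rose by 0.60 ± 0.12 (SE, edgeR adjusted p = 0.000566). Cyld itself had -0.09 ± 0.10 (SE, edgeR adjusted p = 0.454), so that neither of the deubiquitinase genes tied to the linear ligase, Cyld and Otulin, passed the test.

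Of 10 genes of the kinase complexes that read ubiquitin chains, 7 were higher and 1 was lower, with a median log2 fold change of 0.48. Tbk1, a kinase gene that acts with TRAF3 and the adaptor TANK, had 33.5 to 38.9 CPM after PBS and 92.5 to 112 CPM after TNF. It rose by 1.54 ± 0.11 in log2 (SE, edgeR adjusted p = 5.79e-08), the same size of rise as that of Traf6. Tab1, the gene of a partner of the kinase TAK1, fell by 1.35 on the log2 scale (SE 0.15, edgeR adjusted p = 4.18e-06). Ikbkg, which encodes NEMO, the reader of linear chains, had -0.04 ± 0.12 (SE, edgeR adjusted p = 0.776).

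**Figure D4:**
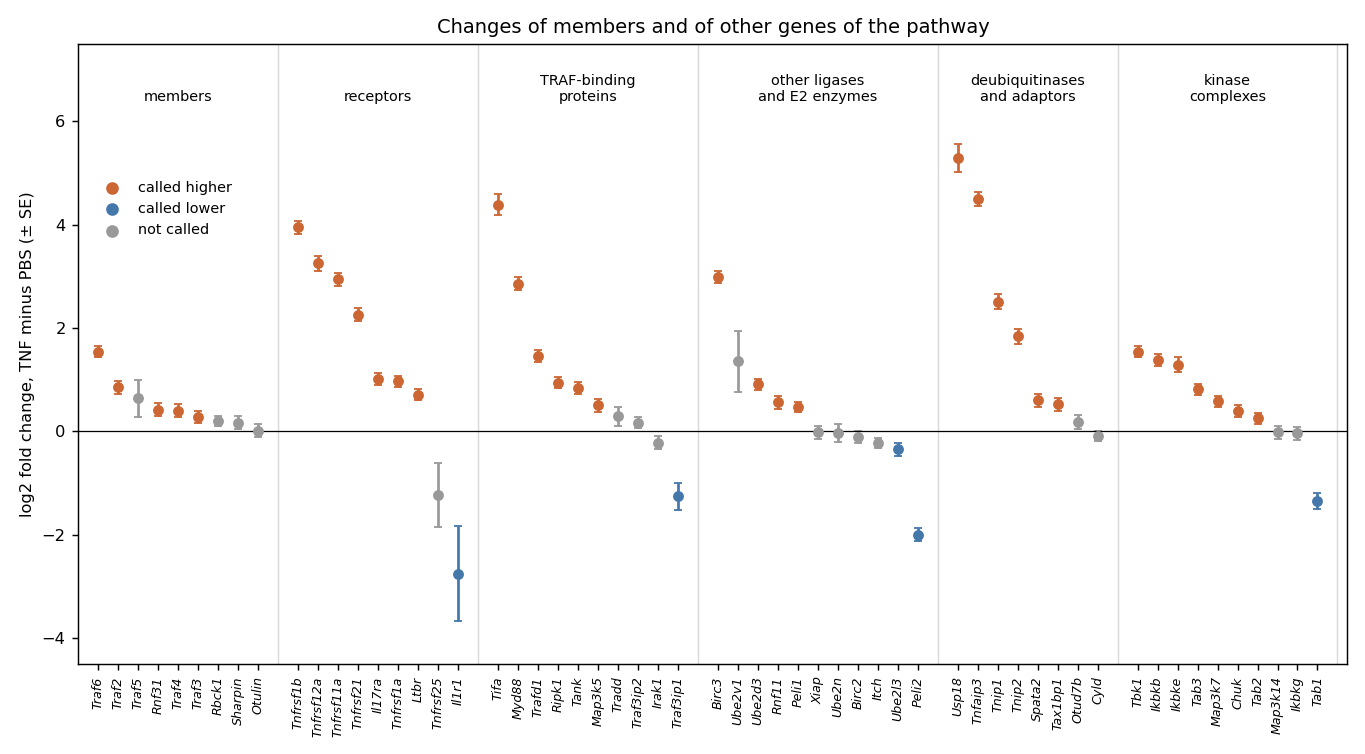
Log2 fold change of TNF against PBS (y axis, ± SE from edgeR) for the 9 tested members and the tested genes of 5 pathway lists. Colours mark genes called higher, called lower or not called, and Cd40 is left out because it has 1 count after PBS. The members lie between 0.01 and 1.54, below the largest rise of each of the lists of receptors, TRAF-binding proteins, ligases and deubiquitinases.

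The sorted cells were checked against marker genes. Over all tested genes, 29.5% were called higher and 30.1% lower. The 10 PC markers summed to 188156 to 313459 CPM after PBS and 174792 to 321350 CPM after TNF, and none was at 0. Of these, 3 were lower (Clps, Habp2 and Mptx2, at -2.27, -1.26 and -1.07 in log2) and 1 was higher (Mmp7, at 0.88), while 6 were lower with scaling by total counts. Lower PC markers numbered 2 without PBS replicate 1 and 5 without PBS replicate 3, and 0 were higher with the replicate number as a block. Markers of other epithelial cells also moved with the groups. Summed CPM went from 1427 to 2367 down to 276 to 706 for tuft cells (8 of 8 markers lower), from 514 to 667 down to 102 to 128 for enterocytes (6 of 8 tested markers lower, 1 higher), from 11300 to 20705 down to 9440 to 10976 for goblet cells (4 of 8 lower, 1 higher), and from 3708 to 5030 down to 2072 to 2843 for stem cells (6 of 7 lower). Enteroendocrine markers summed to 47.2 to 123 CPM and 50.7 to 90.1 CPM (4 of 9 lower, 1 higher). The higher one was Tac1, with a mean of 1.71 CPM after PBS and 41.1 CPM after TNF, a large part of the summed level after TNF. Of the enteroendocrine markers, 1 was lower without PBS replicate 1 and 2 without PBS replicate 2. Leukocyte markers summed to 24.2 to 32.0 CPM and 19.1 to 29.7 CPM (of 4 tested, 1 lower and 1 higher), with Cd3e at 0 in all libraries. The higher one was S100a9, a neutrophil and monocyte gene, with 0 counts in every PBS library and 103, 116, 60 and 120 in the TNF libraries, and its partner gene S100a8 had 0 counts after PBS and 32 in all after TNF. The lower one was Ptprc, which was no longer called when PBS replicate 2 was left out, nor when any of TNF replicates 1, 2 and 4 was. Without PBS replicate 1, 6 leukocyte markers were tested, with 3 higher and 1 lower. Stromal and endothelial markers summed to 2.39 to 2.72 CPM and 8.19 to 10 CPM, with Col1a2 and Kdr at 0 in all libraries, Vwf the only one tested, and Vwf higher. The part of these cell types in the values of the Traf and linear ubiquitin genes was not tested.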

How the data were processed

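RNA-seq libraries of sorted PCs from 3 PBS and 4 TNF injected mice were analysed. The authors deposited raw counts, whole numbers of reads per gene with 1 column per library. The submitters' processing notes name FastQC, Trimmomatic 0.39, STAR 2.7.10a and DESeq2, and both mm10 and mm39, so the build used for counting is not settled. The counting program, annotation and strand setting were not given in the sources used here, which affects genes that share exons, such as Rnf31, Rbck1 and Sharpin. All count columns were matched to samples by name. The accompanying paper did not describe the injection experiment, and nothing in the analysis was taken from it.

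From the deposited counts, genes were filtered with filterByExpr, scaled by TMM and tested in R 4.3.3 with edgeR 4.0.16 (glmQLFit robust, glmQLFTest, two-sided, no covariates, Benjamini-Hochberg over all 14329 tested genes). Genes with an adjusted p under 0.05 are called. SEs came from the F statistic and the fitted change, and intervals are 95%. Alternatives were DESeq2 1.42.0 size factors, its Wald test, total counts scaling, TMM without alpha-defensins and Lyz1, no filter, at least 1 CPM in 3 libraries, at least 2-fold change, the replicate number as a block, and leaving out each library. Same-numbered PBS and TNF libraries showed no shared deviation, which cannot exclude a pairing with so few libraries.

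Symbols, coordinates and exon lengths were taken by identifier from GENCODE M39 (GRCm39), which held 54749 of the 55414 identifiers and can differ from the annotation used for counting. Promoter windows are from RefSeq on GRCm38.p6. No molecular identifiers were used, so limits cover counting error only. Between libraries of a group, Spearman correlations across genes were 0.98 to 0.99, and no library was a copy of another (chi-square divided by its degrees of freedom at least 17).

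The members, the pathway and marker lists and the naming rule were chosen with earlier results of these data known. The rule named all members, Tnfrsf1a, Tradd, Ripk1, Birc2, Birc3, Tnfaip3, Cyld, Spata2 and Ikbkg, from each pathway list the called genes with the largest rise and the largest fall among those with a mean of at least 5 CPM, and the 3 protein-coding genes most like the member with the largest change. Some genes that the rule and lists hold are not reported here. Genes that overlap a member, marker genes, Cd40, Il1r1 and Otulinl were named besides. The planned ratio of Traf1 to Traf2 was not computed, since Traf1 had 0 counts in 4 libraries.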

Additional observations from a re-analysis of the deposited data

Results flagged for a closer look

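Within the TNF group, 32 values were checked for a library that stands apart by the ratio of its gap to the whole range, against Dixon's 95% limit for 4 libraries, and chance alone passes this limit in about 1 of 20 groups. Traf1 passed it with a ratio of 1.0, because TNF replicate 1 had 6 counts and the other 3 TNF libraries had 0. The PBS group, with 3 libraries, is too small for this check.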

How the results depend on the processing

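Traf6 was called higher under all 15 alternatives (log2 fold change 1.38 to 1.62), and Traf2 under all but the 2-fold requirement (0.68 to 0.91). The number of called members was 5, and it was 2 with total counts scaling (Traf2 and Traf6), 1 with at least a 2-fold change (Traf6), and 3 to 5 when each library was left out, with 3 without PBS replicate 3. The 2-fold requirement gave 4530 called genes in all, and 4 TRAF-binding genes, 2 other ligase genes and 4 kinase genes. Leaving out a library gave 7663 to 8625 called genes in all. Total counts scaling gave 3147 higher and 4614 lower genes. Over leave-one-out, called genes numbered 8 to 10 for receptors, 7 to 8 for TRAF-binding proteins, 5 to 8 for other ligases, 6 to 7 for deubiquitinases and 7 to 8 for kinases. Otulin turned to -0.14 with total counts scaling, -0.04 without PBS replicate 3 and -0.05 without TNF replicate 1, and ran from -0.05 to 0.04 over the libraries left out. The log2 difference in the ratio of Traf5 to Traf2 was -0.17 and ran from -0.47 to 0.08, turning to 0.08 without PBS replicate 3. The other ratio differences kept their sign, at -0.61 to -0.50 (Traf3 to Traf2), 0.62 to 0.79 (Traf6 to Traf2), -0.30 to -0.17 (Rbck1 to Rnf31), -0.30 to -0.20 (Sharpin to Rnf31) and -0.48 to -0.30 (Otulin to Rnf31). Same-numbered PBS and TNF libraries did not deviate together (correlations across genes of -0.299, -0.0314 and -0.174). With so few libraries this cannot exclude that the numbers pair them. With the replicate block, which TNF replicate 4 enters without a partner, 7131 genes in all and 4 members were called, without Traf3 (log2 fold change 0.30, edgeR adjusted p = 0.0872). Tuft cell markers called lower numbered 8, 5 without the filter on low counts and 6 to 8 over the libraries left out, enteroendocrine markers called in either direction 5 and 2 to 6, and leukocyte markers 2 and 1 to 4, with 1 under the block. The causes of these changes were not tested. Depth limits Traf1, which had 0 counts in 4 libraries.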
